A study of Mus musculus with 217 samples.

Results

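The proteasome subunit genes are taken here as the protein-coding genes whose symbol begins with Psma, Psmb, Psmc, Psmd, Psme, Psmf or Psmg followed by a number. In the mouse annotation (GRCm38) 50 protein-coding genes met this rule. The deposited tables listed 46 of them in the nucleus accumbens (NAc), among 11867 genes, 45 in the dorsomedial striatum (DMS), among 12101 genes, and 45 in the dorsolateral striatum (DLS), among 11394 genes. The same 45 genes were listed in all 3 regions. Psmb8 was listed in the NAc only, and Psma8, Psmb9, Psmb11 and Psmg3 were in none of the tables. Psmc3ip met the symbol rule, but it encodes a factor of meiotic recombination and not a part of the proteasome.

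The study measured how gene expression in the striatum, the input nucleus of the basal ganglia, varies over the day. All animals were C57BL/6J mice of both sexes, about 10 weeks old and without any further treatment, kept in 12 h of light and 12 h of dark. They were killed at Zeitgeber time (ZT, hours after lights on) 2, 6, 10, 14, 18 or 22, so that the first 3 times lie in the light and the others in the dark. Punches of 1 mm from both hemispheres gave 217 libraries from 93 animals: 77 of the NAc (37 from females, 40 from males), 70 of the DMS (34 and 36) and 70 of the DLS (35 and 35), with 5 to 7 animals per sex, time and region. Each animal was sampled at 1 time, so each rhythm below compares different animals.

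The proteasome degrades proteins tagged with ubiquitin and clears most short-lived and damaged proteins of a cell. Its 20S core is a barrel of stacked rings: the outer alpha rings (Psma genes) gate the entrance, and the inner beta rings (Psmb genes) hold the protease sites. The 19S cap consists of a base, whose ATPases (Psmc genes) unfold the substrate, and a lid (most Psmd genes), which removes ubiquitin, while activators of the Psme family can replace the cap and Psmf1 (PI31) was first described as an inhibitor. In neurons the complex also takes part in the turnover of synaptic proteins.

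Levels were compared between genes as log2 normalised counts per kilobase of exon. Psmc5, an ATPase of the base, had the highest level per kilobase in every region, 11.05 in the NAc, 11.09 in the DMS and 11.05 in the DLS. Psmc1, another base ATPase, followed with 10.82, 10.83 and 10.68. Among the 3 catalytic beta subunits the caspase-like Psmb6 reached 10.11, 10.09 and 10.00, the chymotrypsin-like Psmb5 10.00, 9.75 and 9.72, and the trypsin-like Psmb7 8.95, 8.84 and 8.72. The order of these 3 was the same in each region. Psmb10, which replaces Psmb7 in the immunoproteasome of immune and interferon-treated cells, lay far lower at 6.38, 6.10 and 6.04. Psmb8, the counterpart of Psmb5, was at 4.60 in the NAc. The activator subunit Psme1 had 8.57 in the NAc, 8.15 in the DMS and 7.38 in the DLS, and Psmf1 had 5.97, 6.13 and 5.54. The regions were normalised separately by the authors, so these levels stand side by side and were not tested between regions. Psme2 and Psme2b are near-identical copies that may share reads, and a value for either is uncertain. The use of strand in counting is not given in the sources used here, so genes that overlap another on the opposite strand (Psme1 with Emc9, Psmb10 with Gm16156, Psmd5 with Cutal) may hold some of its reads.

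**Figure D1:**
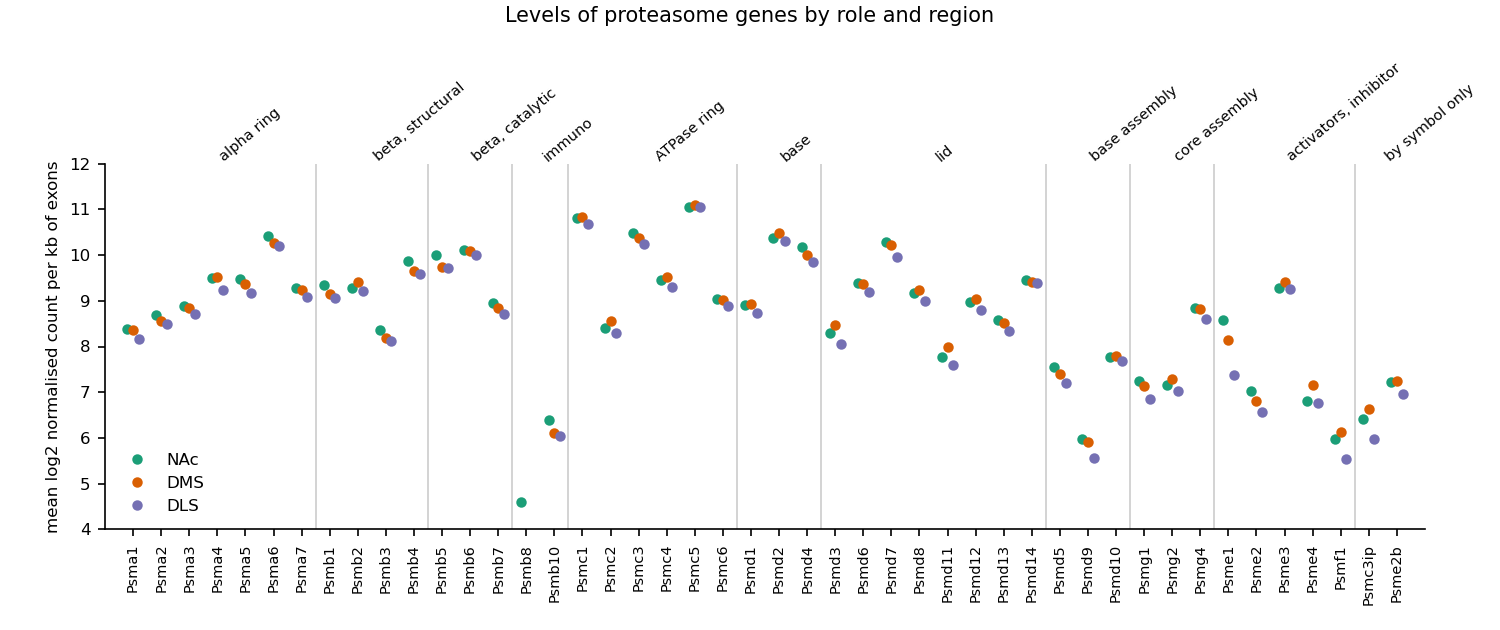
Mean log2 normalised count per kilobase of exon (vertical axis) of each proteasome gene (horizontal axis, ordered by role), with 1 coloured point per region. Psmc5 lies at the top in each region, and Psmb10, Psmf1 and Psmd9 lie among the lowest.

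Promoter stretches of 4 genes are shown because these genes recur below: Psme3 passed the rhythm test in DMS and DLS, Psmb10 had the largest time-of-day difference of the called genes in the DMS, and Psmb5 and Psmb6 are catalytic subunits. Sequences are from RefSeq (GRCm38.p6), read 5′ to 3′ on the gene's strand and end just before the start of the gene, at chr11:101315963-101316212 on the plus strand for Psme3, chr8:105938445-105938642 on the minus strand for Psmb10, chr14:54618023-54618245 on the minus strand for Psmb5 and chr11:70525107-70525356 on the plus strand for Psmb6. Capitals mark the E-box CACGTG, the motif of clock transcription factors such as CLOCK and BMAL1, in the first pair and the antioxidant response core TGACNNNGC, the motif of NRF factors, in the second pair.
Psme3: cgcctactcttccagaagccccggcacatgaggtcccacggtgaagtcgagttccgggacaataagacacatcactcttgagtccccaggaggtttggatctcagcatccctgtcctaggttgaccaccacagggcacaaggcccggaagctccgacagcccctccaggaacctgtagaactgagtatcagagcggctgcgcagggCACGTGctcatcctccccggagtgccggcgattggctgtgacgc
Psmb10: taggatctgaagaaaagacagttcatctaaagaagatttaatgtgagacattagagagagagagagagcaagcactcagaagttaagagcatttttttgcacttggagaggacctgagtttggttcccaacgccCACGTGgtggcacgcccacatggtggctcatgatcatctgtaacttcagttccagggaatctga
Psmb5: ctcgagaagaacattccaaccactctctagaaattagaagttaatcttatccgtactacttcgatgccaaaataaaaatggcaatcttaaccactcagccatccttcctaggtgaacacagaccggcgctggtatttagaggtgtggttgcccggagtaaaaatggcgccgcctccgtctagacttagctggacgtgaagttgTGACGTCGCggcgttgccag
Psmb6: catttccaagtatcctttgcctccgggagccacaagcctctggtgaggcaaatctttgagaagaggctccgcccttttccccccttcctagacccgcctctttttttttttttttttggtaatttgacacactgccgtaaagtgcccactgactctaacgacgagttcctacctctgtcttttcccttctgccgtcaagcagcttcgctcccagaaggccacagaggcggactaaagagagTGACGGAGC

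RefSeq promoter windows, 250 bases before to 50 after the start, were matched for 39 of the 46 genes and searched on both strands. CACGTG was found in 4 of them (Psma4, Psmb10, Psmd9 and Psme3), or 10.3%, against 8.09% of the windows of 27025 genes. TGACNNNGC was found in 6 (Psmb5, Psmb6, Psmc6, Psmd12, Psmd9 and Psme4), or 15.4%, against 14% of all windows. No match of one motif overlapped a match of the other. These matches describe letters in a window and are not measurements of binding.

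Rhythms were tested by fitting a cosine with a period of 24 h to each gene with limma, with sex in the model and the p-values adjusted over all genes of the region (Benjamini-Hochberg, threshold 0.05). The fold given below is the fitted ratio of peak to trough. The regions differed widely in how many genes of any kind were called. Of the proteasome genes 29 of 45 were called in the DMS, where 51.3% of all genes were called, 6 of 45 in the DLS, where 21% were, and 0 of 46 in the NAc, where 2.56% were. The NAc had 6 proteasome genes with an unadjusted p under 0.05 in limma, beside 1791 of all 11867 genes. The median fold over all listed proteasome genes was 1.164 in the DMS, 1.072 in the DLS and 1.084 in the NAc, beside medians of 1.158, 1.097 and 1.109 over all genes. By share called in this fit, the genes stood somewhat above the region's background in the DMS and below it in the DLS. With time as 6 separate levels, 11 of 45 were called in the DMS, below the 38.6% of all genes.

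In the DMS, 25 of the 29 called genes had their fitted peak in the dark in the deposited scaling, but when each library was scaled to an equal sum, 28 genes were called and all 28 peaked in the light. Of all genes called in the DMS in the deposited scaling, 50.44% had their peak in the dark. These were 25.9% of all genes tested. Equal-sum scaling called 76.9% of all DMS genes, more than the share of the proteasome genes it called, and 14 of its 28 calls were shared with the deposited scaling. The called peaks were narrow in time in the deposited scaling: 26 of 29 fell between 10 and 15 h, and the median was 13.2 h, shortly after lights off. The share of all called DMS genes with a peak in those hours is not given here. The narrow range is therefore not shown to be particular to these genes. Scaling to an equal sum outside the 5 most abundant genes gave 30 calls, where 52.4% of all genes were called. Of the 30, 29 were shared with the deposited scaling, and 23 peaked in the dark and 7 in the light. Equal-sum scaling moved all DMS genes by a mean of −0.17 (log2) at ZT18 to 0.16 at ZT22. Changes are given relative to the deposited scaling from here on.

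Of the 15 genes of the 20S core listed in the DMS, 13 were called, beside the 51.3% of all genes, with a median fold of 1.22. All 4 structural beta subunits (Psmb1 to Psmb4) and 6 of the 7 alpha subunits were called, all except Psma1. Psma6, a subunit of the alpha ring, had levels of 10.08 to 11.01 at ZT2 (median 10.22) and of 10.21 to 11.29 at ZT14 (median 10.92). The ranges overlapped, with the ZT14 median close to the highest ZT2 library. Its fitted fold was 1.32 with a peak at 12.99 h (adjusted p = 0.012, limma). Psmb7 was at 10.14 to 10.94 at ZT2 (median 10.36) and 10.14 to 11.26 at ZT14 (median 10.86), again overlapping, and its amplitude was 0.17 ± 0.04 (log2, SE; fold 1.26, peak 12.84 h, adjusted p = 0.00634). Psmb5 reached a fold of 1.22 and peaked at 14.26 h (adjusted p = 0.0286), and Psmb6 had a fold of 1.188 and missed the threshold (adjusted p = 0.0755). The immunoproteasome subunit Psmb10 had the largest fold of all called members, 1.478 (amplitude 0.28 ± 0.06, peak 12.75 h, adjusted p = 0.00165). Its DMS levels were 6.06 to 7.07 at ZT2 (median 6.67) and 6.38 to 7.79 at ZT10 (median 7.18), so that the highest libraries of ZT10 lay above every library of ZT2.

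Of the 17 genes of the 19S cap, 10 were called in the DMS, near the 51.3% of all genes. The median fold of the 17 was 1.14, beside 1.158 over all genes. The called genes were 4 of the 6 ATPases, all 3 non-ATPase subunits of the base and 3 of the 8 lid subunits. For the lid that is below the share of all genes. Psmd1, a large scaffold of the base, had 11.55 to 12.00 at ZT22 (median 11.59) and 11.63 to 12.05 at ZT10 (median 11.96). The upper ends met while the medians stood apart, and the fitted fold was 1.153 with a peak at 12.2 h. The ATPase Psmc3 had a fold of 1.197, peaking at 13.46 h (adjusted p = 0.00334), and Psmd14, the lid enzyme that cuts ubiquitin chains off substrates, reached a fold of 1.271. Psmd5, a chaperone that assembles the base and is not part of the finished complex, had the smallest adjusted p of all members (0.000614, fold 1.263, peak 13.45 h). Its levels were 9.96 to 10.45 at ZT2 (median 10.04) and 10.08 to 10.78 at ZT14 (median 10.52). Among the core chaperones Psmg4 had a fold of 1.296. The threshold fell between Psma4 (adjusted p = 0.0409) and the lid subunit Psmd12 (adjusted p = 0.0564).

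Among the activators and Psmf1, the called genes Psmf1, Psme1 and Psme3 had DMS peaks spread from 6.08 to 15.73 h. Psmf1 was highest at ZT10, at 8.77 to 9.20 (median 8.97), and lowest at ZT18, at 8.31 to 8.83 (median 8.68), with little overlap between those times. The fitted peak was at 6.08 h, in the light, with a fold of 1.223 (amplitude 0.15 ± 0.03, adjusted p = 0.00116). Psme3, the activator of nuclear proteasomes, had 10.65 to 11.19 at ZT6 (median 10.83) and 10.93 to 11.27 at ZT18 (median 11.12). Its fold was 1.147, its peak 15.73 h (amplitude 0.10 ± 0.02, adjusted p = 0.00428). Psme1 peaked at 9.45 h with a fold of 1.13. Psme2 (12.36 h, adjusted p = 0.5404, limma) and Psme4 (7.173 h, adjusted p = 0.454, limma) were not called. The peak of Psme3 lay near that of the lid subunit Psmd6 (14.84 h), and differences of peak time between genes were not tested.

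**Figure D2:**
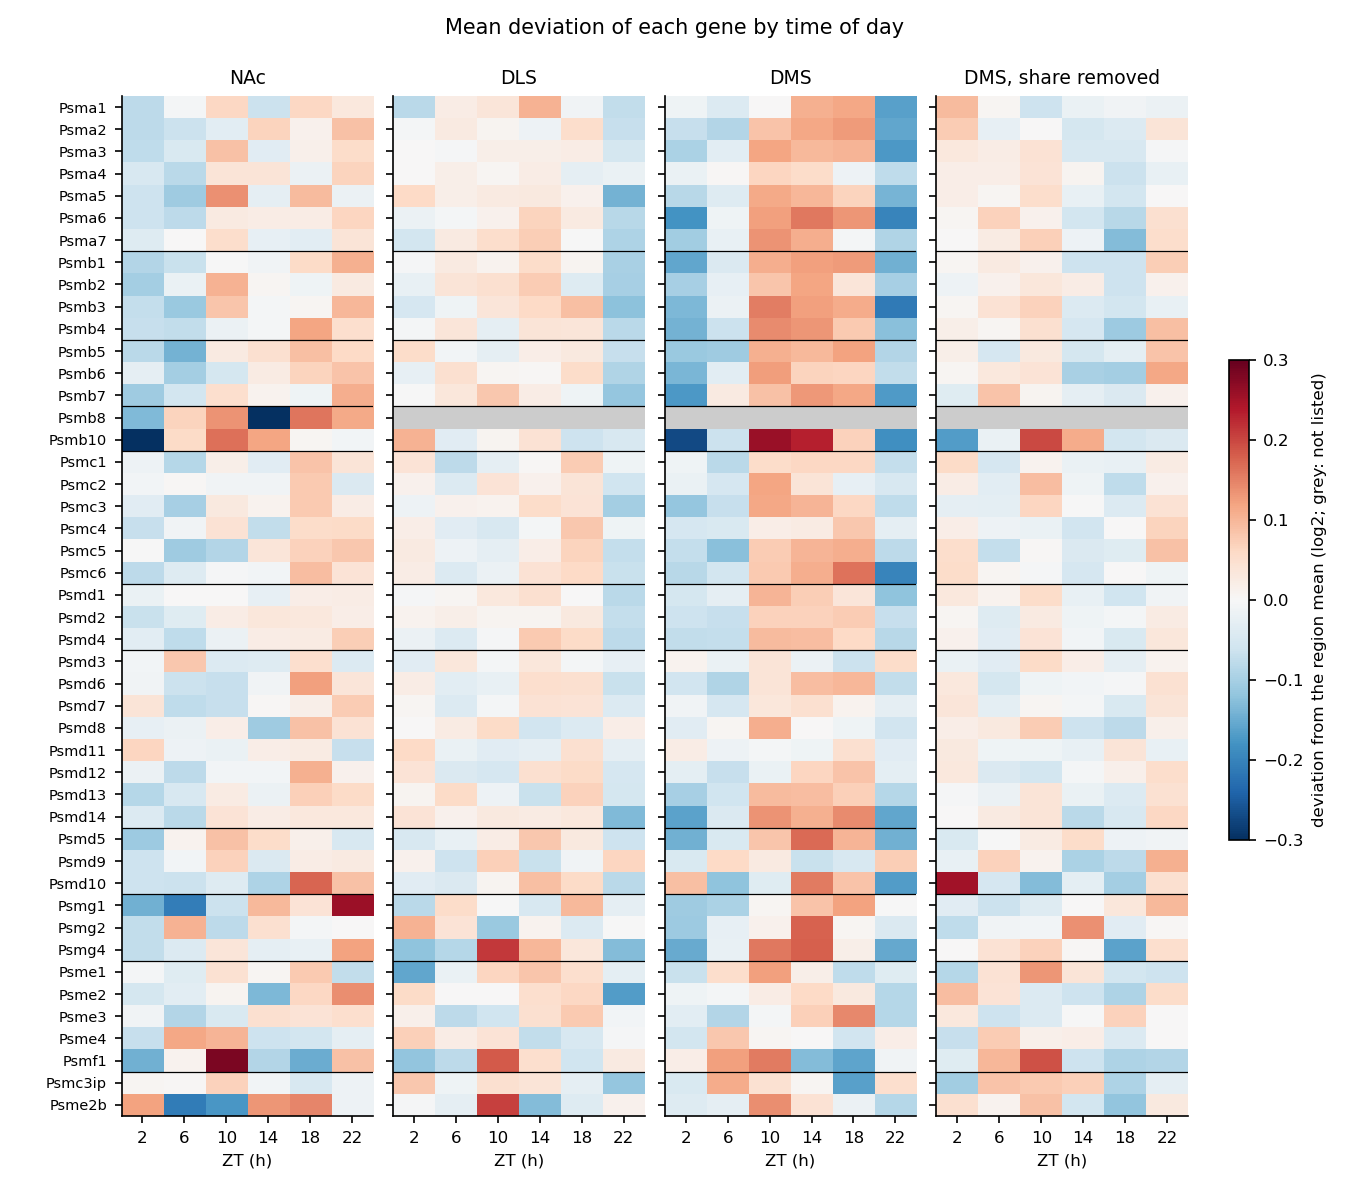
Mean deviation of each proteasome gene from its own region mean (colour, log2 difference, limits ±0.3) by ZT, in NAc, DLS, DMS and DMS after the mitochondrial rRNA share was removed, with genes not listed in grey. In the deposited scaling most DMS genes are above their mean at ZT10 to ZT18 and below it at ZT2 and ZT22 (scaled to an equal sum the called DMS genes peak in the light instead), and the pattern is paler once the share is removed.

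DMS libraries differed in the share of the 2 mitochondrial ribosomal RNAs, mt-Rnr1 and mt-Rnr2, in the summed normalised counts, and this share moved with time of day. It ranged from 19% to 52.6% (median 27.8%), in 37 libraries of 19% to 29.9% and 33 of 35.3% to 52.6%, with none in between. Libraries of the higher range numbered 3 of the 12 taken at ZT2, then 4 of 12 (ZT6), 7 of 11 (ZT10), 7 of 11 (ZT14), 10 of 12 (ZT18) and 2 of 12 (ZT22). The range also went with the animal numbers in the labels, whose meaning is not stated: all 26 DMS libraries of animals numbered from 31 and 7 of the 44 of animals numbered up to 29 were in the higher range. The share was 22.7% to 50.6% in the NAc (median 35%) and 13.2% to 53% in the DLS (median 41.6%). Some marker lists moved with the share too. The summed level of the microglial list (10 of 10 genes listed) was 13.06 to 13.53 (log2) in the 37 DMS libraries of the lower range and 13.39 to 14.01 in the other 33, and that of the oligodendrocyte list (7 of 7) was 17.03 to 17.92 and 16.69 to 17.41. The list of medium spiny neurons, the main neurons of the striatum (10 of 10), was at 17.48 to 18.22 and 17.71 to 18.15. The astrocyte list (7 of 7) had medians of 17.24 and 17.28, with ranges of 17.04 to 17.50 and 16.96 to 17.42, and the endothelial list (8 of 8) medians of 12.73 and 12.77, with ranges of 12.42 to 12.94 and 12.50 to 13.08. Of the list of cortical neurons, whose cells lie next to the striatum, 2 of 5 genes were listed in the DMS (Emx1, Neurod6 and Tbr1 were not), at 6.78 to 12.76 and 7.24 to 12.91. Its DMS median was lowest at ZT2 (8.04) and highest at ZT14 (9.74), and in the NAc, with 3 of 5 genes listed, it was 8.11 at ZT2 and 12.18 at ZT14. No listed marker was at 0. With a term for the animal number range the DMS rhythm count was 8 of 45 in place of 29, and with a term for the share range it was 4. The share of all genes called with those terms is not given here, so the lower counts are not shown to be particular to these genes. The part of these markers and numbers in the results was not tested, and in bulk RNA fewer cells of a type and less RNA per cell cannot be told apart.

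Nearly every proteasome gene differed with this share in the DMS. Per 10 percentage points of share, in a limma fit with time and sex, 42 of 45 genes changed, 39 upward and 3 downward, where 78.7% of all genes were called (39.4% upward and 39.3% downward), but scaled to an equal sum only 3 were called upward and 32 downward. The median slope of the members was 0.19 (log2 per 10 points) against 5.055e-05 for all genes, and under equal-sum scaling it was −0.11 against −0.30. With the sum fixed, a larger share leaves less for all other genes together, so the signs under that scaling are not independent of the share. In the deposited, the equal-sum and the outside-5 scaling alike, 40 of the 45 slopes lay above the median slope of all genes. In the NAc 36 of 46 were called, 35 upward, where 63.3% of all genes were (31.9% upward and 31.4% downward), but scaled to an equal sum 0 were called upward and 26 downward. Under that scaling the median NAc slope was −0.13 for the members and −0.31 for all genes. In each of the 3 scalings 43 of the 46 NAc slopes lay above the median of all genes. In the DLS 17 of 45 were called, 16 upward, where 42% of all genes were (21.3% upward and 20.7% downward), and 18 upward and 0 downward when scaled to an equal sum. The median DLS slope under equal-sum scaling was 0.16 for the members and 0.11 for all genes. In the deposited scaling the DLS count of 17 was 29 of 45 without the male ZT6 library M13, the library with the fewest recovered reads in these genes. M13 was also far below the other DLS libraries in share, at 13.2% with the next at 27.7%. All DLS slopes given here and below include it, and those under the other scalings were not fitted without it.

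The slopes differed by role. In the DMS the median slope of the 20S core was 0.27 and that of the 19S cap 0.15; the NAc had 0.31 and 0.12, and the DLS 0.11 and 0.03. Psma6 had a slope of 0.39 ± 0.02 (log2 per 10 points, SE) in the DMS, 0.37 ± 0.03 in the NAc and 0.22 ± 0.03 in the DLS. In the DMS its levels were 10.08 to 10.59 in the 37 libraries of the lower share range and 10.52 to 11.29 in the 33 of the higher, which barely overlapped. For Psmd1 the levels were 11.50 to 11.79 and 11.73 to 12.11. The genes that fell with the share in the DMS were the lid subunit Psmd3 (−0.07 ± 0.01), Psmf1 (−0.12 ± 0.02) and Psmc3ip (−0.12 ± 0.04). Psmd3 also fell in the NAc (−0.16) and the DLS (−0.07 ± 0.02), the only member called downward in each of those regions. The slopes of Psme1, Psme4 and Psmd11 were not called in the DMS. The difference between roles was not tested.

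**Figure D3:**
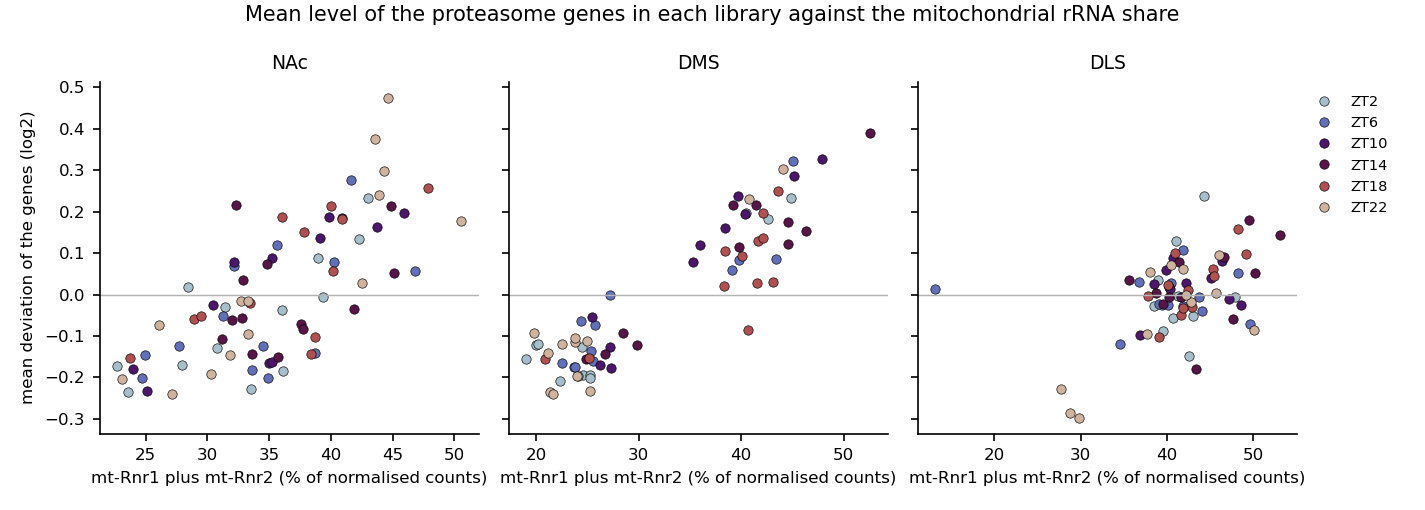
Mean deviation of the listed proteasome genes from their region means in each library (vertical axis, log2 difference, deposited scaling) against the mt-Rnr1 plus mt-Rnr2 share (horizontal axis, % of normalised counts), with 1 panel per region and colour for ZT. The 33 DMS libraries with the higher share lie at −0.09 to 0.39 and the 37 others at −0.24 to −0.00. Under equal-sum scaling most called slopes in NAc and DMS turn downward, where the median slope of all genes is −0.31 and −0.30.

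With the share as a covariate, 6 of 45 proteasome genes were called rhythmic in the DMS, where 28.6% of all genes were. Their median fold fell to 1.068, against 1.098 over all genes. The 6 were Psmf1 (fold 1.203, peak 8.16 h, adjusted p = 0.000585), Psmd1 (1.061, 6.37 h, 0.0215), Psme1 (1.151, 10.3 h, 0.0236), the lid subunit Psmd8 (1.084, 5.60 h, 0.0432), Psme3 (1.071, 19.6 h, 0.0449) and Psmd10, a base chaperone also known as gankyrin (1.21, 1.02 h, 0.0491). Psmf1, Psmd1, Psme1 and Psme3 were called in both fits, which is 13.8% of the 29 and 66.7% of the 6. The overlap of these fits over all genes is not given here. None of the 15 core genes was called, the nearest being Psma6 (adjusted p = 0.0682), Psmb6 (0.105) and the immunoproteasome subunit Psmb10 (0.132, with a fold of 1.236). The other catalytic subunits, Psmb7 and Psmb5, had adjusted p of 0.212 and 0.633 in limma. The count was 3 without any 1 of the libraries female ZT18 F45, F46 or F48, male ZT6 M12, male ZT18 M26 or M29, or male ZT22 M3. Psmf1, Psmd1 and Psme1 kept their call without any 1 of the 70 libraries.

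**Figure D4:**
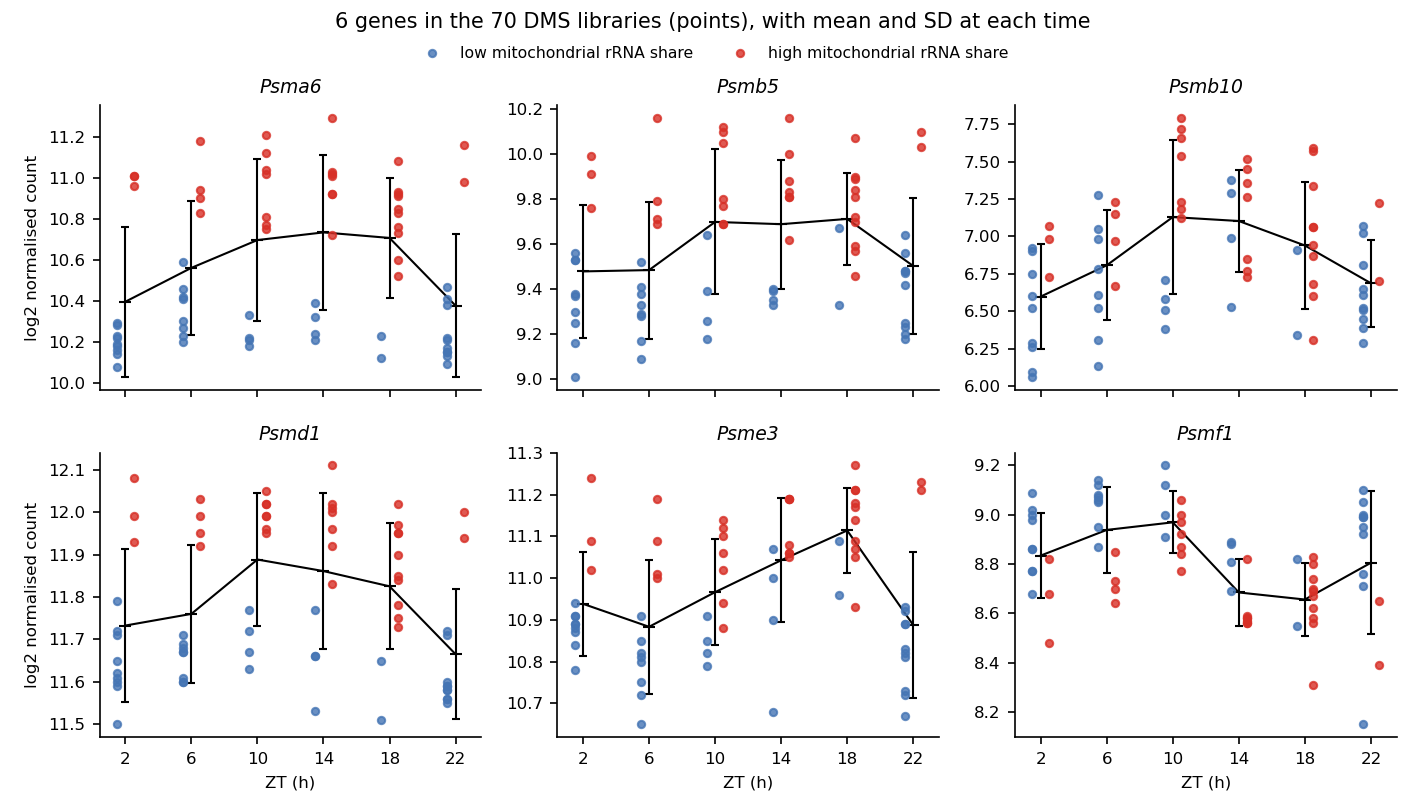
Log2 normalised counts of Psma6, Psmb5, Psmb10, Psmd1, Psme3 and Psmf1 in the 70 DMS libraries by ZT (hours), coloured by the lower or higher range of mitochondrial rRNA share, with the mean ± SD of each time. Psma6 and Psmd1 separate by share range at each time, and Psmf1 reaches its highest mean, 8.97, at ZT10.

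In the DLS 6 genes were called, Psme3, Psmg4, Psmd1, Psma1, Psmb2 and Psma7, with folds of 1.073 to 1.254 and peaks from 10.33 to 18.15 h. Psme3 was at 10.60 to 10.88 at ZT6 (median 10.73) and 10.78 to 11.03 at ZT18 (median 10.88), with a small overlap, and its fold was 1.097, peaking at 18.15 h (adjusted p = 0.00604). Psmg4, a core chaperone, was at 7.03 to 7.95 at ZT22 (median 7.69) and at 7.69 to 8.37 at ZT10 (median 7.90), and its fold was 1.254, peaking at 12.49 h (adjusted p = 0.0132). The catalytic subunits Psmb7 (fold 1.116, adjusted p = 0.0902), Psmb6 (1.058, 0.495) and Psmb5 (1.008, 0.989) were not called, nor was Psmb10 (1.04, 0.931). With the share as covariate 4 genes were called (Psme3, Psmg4, Psmb2 and Psmd1), where 21.2% of all genes were. Of the 6 DLS genes, 5 were also called in the DMS without the covariate (Psma7, Psmb2, Psmd1, Psme3 and Psmg4), 83.3% of the DLS calls and 17.2% of the DMS calls. In that DMS fit 29 of 45 members and 51.3% of all genes were called. The overlap over all genes is not given here, so this overlap is not shown to be particular to these genes. Psme3 and Psmg4 kept their DLS call without any 1 of the 70 libraries, and the count was 2 without female ZT22 F2, F3 or F4, 3 without female ZT2 F6, female ZT10 F19, female ZT14 F43, female ZT22 F5 or male ZT14 M24, and 10 without female ZT2 F9. Scaled to an equal sum none was called in the DLS, where 1.9% of all genes were, against 21% in the deposited scaling.

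No proteasome gene was called in the NAc. The smallest p belonged to the lid subunits Psmd6 (fold 1.122, 19.4 h, adjusted p = 0.158) and Psmd7 (1.105, 21.1 h, 0.197). Psme3 in the NAc was at 10.47 to 11.08 at ZT6 (median 10.76) and 10.69 to 11.28 at ZT18 (median 10.88), ranges that largely overlap, with a fold of 1.102 and a peak at 18.6 h (adjusted p = 0.282). Psmb8, listed in this region alone, ranged from 4.80 to 7.68 over the libraries, with means of 6.03 at ZT14 to 6.52 at ZT18. With the share as covariate the count in limma was again 0 of 46, where 4.28% of all genes were called. In that fit 5 members had an unadjusted p under 0.05 in limma, beside 2131 of all 11867 genes.

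**Figure D5:**
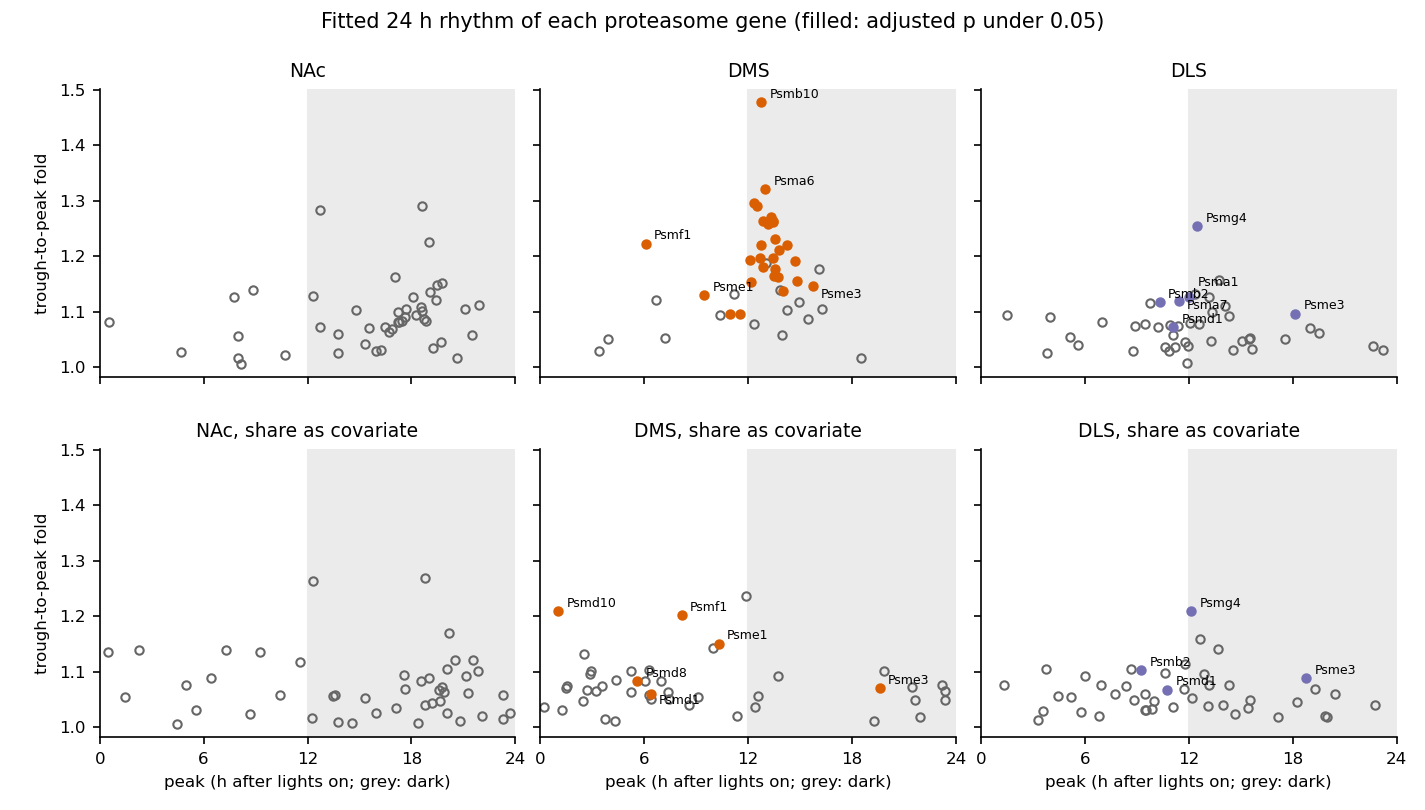
Fitted peak time (h after lights on, dark phase in grey) and fold from trough to peak (vertical axis) of each proteasome gene in NAc, DMS and DLS, without and with the mitochondrial rRNA share as covariate; filled points have an adjusted p under 0.05 in limma. The filled DMS points cluster between 10 and 15 h without the covariate in the deposited scaling (in the light when scaled to an equal sum), and 6 remain filled with it. The share of all called genes with a peak in those hours is not given.

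Psmf1 had its highest mean at ZT10 in all 3 regions. In the NAc the level at ZT10 was 8.72 to 9.35 (median 8.88), against 7.84 to 8.90 at ZT18 (median 8.62). In the DLS it was 8.14 to 8.75 at ZT10 (median 8.35), against 7.77 to 8.48 at ZT2 (median 8.20). The ranges of the compared times overlapped in both regions. The cosine fit did not call it in the NAc (adjusted p = 0.4866) or the DLS (adjusted p = 0.1338). With time as 6 separate levels its adjusted p in limma was 0.0445 in the NAc, 0.00269 in the DMS and 0.0430 in the DLS, where 1.54%, 38.6% and 21.1% of all genes were called. ZT10 was still the highest time without any 1 library in each region. The NAc value passed the threshold without 42 of the 77 libraries taken in turn and ranged from 0.0189 to 0.101, and the DLS value passed it without 50 of 70 and ranged from 0.0191 to 0.107. Scaled to an equal sum the adjusted p was 0.669 in the NAc and 0.530 in the DLS, and in the DMS it was 0.00539 with the highest level at ZT6.

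A test of whether the rhythm differed between the 3 regions, over the 11283 genes listed in all and with the animal as a replicate block, called 0 of 45 proteasome genes in limma, where 0.275% of all genes were called. There were 8 members with an unadjusted p under 0.05 in limma, beside 2042 of all 11283 genes. The smallest p of the members belonged to Psmd1, with an adjusted p of 0.171 in limma. The rhythm that was called in the DMS and not in the other regions is therefore not shown to differ between them.

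Within each region the genes varied together from library to library. After time and sex were fitted, the median pairwise correlation between members was 0.63 in the DMS (70 libraries), 0.35 in the NAc (77) and 0.31 in the DLS (70), and 0.22, 0.24 and 0.29 once the share was removed as well. These libraries share depth and share differences, and pairs of all genes had a median close to 0. In the DMS Psmb1, Psma6 and Psmb4 had a mean correlation of 0.65 with the other members. Psmf1 had the lowest, −0.38 (−0.07 after the share was removed), followed by Psmd3 with −0.29 (0.17), Psme4 with −0.22 and Psmc3ip with −0.22.

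Levels of the proteasome genes did not pass the test between sexes. In limma 0 members were called in any region, with 3 unadjusted p under 0.05 in the NAc, 4 in the DMS and 4 in the DLS, where 0.0758%, 0.909% and 0.202% of all genes were called. Once the mitochondrial rRNA share was in the model, 3 genes were lower in males in the NAc, where 2.78% of all genes were called and 1.2% were lower in males: Psmd10 (difference −0.33 ± 0.08 log2, adjusted p = 0.0126, limma), Psma3 (−0.16) and Psmd14 (−0.14). In the DMS 8 were lower in males, where 8.1% of all genes were called and 4.39% were lower in males, among them Psmd2, a scaffold of the base (−0.09 ± 0.02, adjusted p = 0.00105, limma), Psmc4 (−0.11) and Psma6 (−0.11). All 7 DMS libraries of the higher share range from animals numbered up to 29 were male (M15 and M24 to M29). Sex was therefore tied to share and animal number in the DMS. No sex fit held both the share and the number range, so their parts in these differences cannot be told apart. In the DLS none was called, where 0.281% of all genes were. There 2 members had an unadjusted p under 0.05 in limma, beside 1184 of all 11394 genes. The rhythm did not pass the test of a difference between sexes for any member in limma, and 0% of all genes were called in each region. An unadjusted p under 0.05 in limma was found for 1, 3 and 2 members in NAc, DMS and DLS. Over all genes it was found for 475 of 11867, 459 of 12101 and 1284 of 11394.

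Genes that work with the proteasome were given by lists chosen with earlier results of these data known. Their counts stand beside the 51.3% of all genes called in the DMS, 28.6% in the DMS with the share, 21% in the DLS and 2.56% in the NAc. Of 13 listed proteasome factors, 2 were rhythmic in the DMS, 4 in the DMS with the share, 2 in the DLS and 0 in the NAc in limma. In each case that was near or below the share of all genes. Zfand5, which activates the proteasome, had a fold of 1.275 in the DMS (peak 12.7 h, adjusted p = 0.000208) and 1.173 in the DLS (11.95 h, 0.000327). The maturation factor Pomp was called in the DMS with the share (1.152, 3.58 h, 0.00157). Of 10 listed genes of the NRF pathway, which controls transcription of proteasome genes, 5 were rhythmic in the DMS, 2 in the DLS and 1 in the NAc, close to the share of all genes in the DMS and DLS. Mafg, a partner of NRF factors, was called in all 3, with folds of 1.282, 1.207 and 1.196 and peaks at 21.9, 20.3 and 20.3 h in DMS, DLS and NAc (adjusted p = 5.819e-05, 0.00228 and 0.0411, limma). Nfe2l1, which encodes the NRF1 factor itself, had a fold of 1.143 in the DMS with a peak at 2.22 h. Of 12 listed shuttle and p97 genes 4 were rhythmic in the DMS and 2 in the DLS, where Vcp, the p97 segregase, had a fold of 1.094 and a peak at 7.16 h (adjusted p = 0.000228). Of 6 listed ubiquitin and E1 genes 5 were rhythmic in the DMS and 3 in the DLS. Uba6, an E1 enzyme, had a fold of 1.365 in the DMS (17.7 h, adjusted p = 6.081e-07) and 1.313 with the share.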

How the data were processed

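Per the submitters' processing notes, reads were checked with FastQC, trimmed with Trimmomatic, aligned with HISAT2 2.1.0 and counted with HTSeq 0.10.0; the design text names GRCm38, although the notes also list a human build. The deposited tables hold log2 values of counts that the authors normalised with DESeq2, separately for each region after a filter on low genes. In the DMS and DLS, 100% of the values were whole reads over a size factor (tolerance 0.01), with 35711640 to 57468484 reads per DMS library and 29719087 to 56799764 per DLS library; in the NAc 2.01% were, so its depth is unknown. Library depth limits the weakly expressed genes first.

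The members and lists, and the marker lists, were chosen with earlier results of these data known. Genes were named from a set rule, and not every gene under it is given with values. It held the catalytic and immunoproteasome subunits and the 6 of smallest p in each rhythm fit. Up to 4 that passed in each sex, share or region test, up to 3 per list of partner genes, and those beside the threshold were also included. Every other gene named with values was chosen after its values were seen. Log2 values were fitted with limma 3.58.1 in R 4.3.3 (2 degrees of freedom for the 24 h cosine, sex as a term, animal as block between regions), after a test on simulated data, and p-values were adjusted over all genes of a region. Alternatives were other scalings, filters, time as 6 levels, the mitochondrial rRNA share as a covariate, counts recovered from the values with voom, and each library left out. Replicates are separate animals, and the p-values rest on the spread between them. The DLS labels state 11395 genes and the table holds 11394.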

Additional observations from a re-analysis of the deposited data

Results flagged for a closer look

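In 3 of 36 groups of 1 sex, time and region, 1 library lay far from the others in the mean deviation of its proteasome genes; chance gives about 1 in 20 such groups. All 3 were in the DMS with 6 libraries per group. Among females at ZT22, library F49 was at 0.23 (log2), where the others were at −0.23 to −0.11, and its mitochondrial rRNA share was 40.8% against 21.2% to 24.9%. Among males at ZT2, library M31 was at 0.18, where the others were at −0.21 to −0.19, with a share of 42.6% against 22.3% to 25.3%. Among males at ZT22, library M47 was at 0.30, where the others were at −0.24 to −0.09, with a share of 44.1% against 19.8% to 25.3%. Each of these libraries was also the only 1 of its group from an animal numbered from 31. The part of the share or of the animal numbers in these values was not tested.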

How the results depend on the processing

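Equal-sum scaling of the share slope, Psmf1 with time as 6 levels, the share range as a term in the slope, each range alone with the share as covariate, and leave-one-out outside the rhythm tests were chosen after seeing the data. With time as 6 levels the rhythm count was 1 of 46 in the NAc (Psmf1) and 11 of 45 in the DMS. Of all genes 1.54% and 38.6% were called, so the DMS count lay below the background. The DMS count of 29 was 8 with a term for animal numbers up to 29 against from 31, 4 with the share range as a term, 1 in the lower-range libraries alone (Psmc3) and 1 in the higher-range libraries alone (Psmf1), with 23 to 34 over leave-one-out. The share of all genes called in those fits is not given here, so these counts are not shown to be particular to the proteasome genes. The DMS count with the share, 6, was 11 under equal-sum scaling, where 30.9% of all genes were called. It was 0 in the lower-range libraries (2 unadjusted p under 0.05 in limma), 3 in the higher-range libraries, and 3 to 7 over leave-one-out. The share of all genes called in either range alone is not given here. The DLS count of 6 was 0 under equal-sum scaling, where 1.9% of all genes were called. It was 2 outside the 5 most abundant genes, where 14.9% of all genes were called, and 2 to 10 over leave-one-out. The share slope count was 26 in the DMS with the range as a term, and in the DLS 38 outside the 5 most abundant genes and 15 to 29 over leave-one-out. For those 38 calls the DLS scaling had a median slope of 0.14 over the members and 0.09 over all genes. The sex count of 0 was 3 in the NAc and 8 in the DMS with the share, and 4 in the DMS with the number range as a term. Under equal-sum scaling Psme3 in the DMS reversed, with an amplitude of 0.0943 and a peak at 0.55 h (adjusted p = 0.0147, limma). Without the replicate block the region test still called 0 members, and 26 of all genes in place of 31. The cause of these changes was not tested.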
